A study of Mus musculus with 10 samples.

Results

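Hlf, its PAR bZIP relatives and the genes of the circadian clock were followed in blood stem cell-enriched bone marrow that had or had not lost Mll. The group was set by gene name and holds 10 genes: Hlf, Tef, Dbp, Nfil3, Per1, Per2, Per3, Cry1, Nr1d1 and Bhlhe40. All probe sets paired with exactly 1 of these symbols were taken, which gave 21 of the 45037 probe sets that are not array controls, and 10 of 18193 genes. The cells came from 8-week-old female mice with a B6.SJL-Ptprca Pep3b/BoyJ background. All mice were homozygous for a floxed Mll allele (Mll F/F), and 5 of them, the Mll-deficient group, also carried Mx1-cre, while the 5 controls had no cre. Mx1-cre is driven by an interferon-responsive promoter that acts in many cell types, so deletion was not limited to stem cells. Every mouse, controls included, was given 3 doses of pI:pC (polyinosinic:polycytidylic acid, which raises interferon), each of 10 µg per gram of body weight with a further 50 µg, at intervals of 48 hours. Marrow was collected on day 6, and LSK/CD48- cells were sorted from it, the Sca-1-positive, Kit-positive fraction without lineage markers or CD48. RNA of 1500 to 10000 cells per mouse was amplified and hybridised to 1 whole-genome Affymetrix mouse array each. No hour of collection is given in the labels used here.

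PAR bZIP factors are basic leucine zipper proteins with a proline- and acidic-residue-rich domain. Hlf, Tef and Dbp activate genes through a DNA element called the D-box, and Nfil3, a bZIP repressor without that domain, binds the same element and opposes them. In the clock, Clock and its partner Bmal1 (gene symbol Arntl) switch on the Per and Cry genes, Dbp, Tef and Nr1d1 through E-boxes. Per and Cry proteins then inhibit Clock and Bmal1. Nr1d1 represses genes, Nfil3 among them, through ROR elements, and Bhlhe40 competes at E-boxes. In blood, Hlf is known for its restriction to the most primitive stem cells. Mll (gene symbol Kmt2a) is a histone methyltransferase that marks active promoters and has been described as a partner of Clock in cultured cells.

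The upstream sequences below show which of these elements stand near the start sites of the genes the results turn on. They are from RefSeq on GRCm38.p6 and run 5′ to 3′ on the strand of the gene, with matches to the searched motifs in capitals. The searched motifs were the E-box CACGTG, the D-boxes TTATGTAA and TTACGTAA, the ROR core TAGGTCA and the cyclic AMP element TGACGTCA, on both strands, in windows from 250 bases before to 50 bases after a start. Windows were found for 8 of the 10 genes, 10 windows in all, and none for Per2 and Bhlhe40. Hlf at chr11:90390918-90391167, minus strand, the 250 bases before its start, is shown because Hlf had the largest difference of the group. Nfil3 at chr13:52981040-52981069, minus strand, the 30 bases before the start used here, is shown because it was the other gene past the test. That start lies inside the gene, whose span reaches chr13:52982878. Per3 at chr4:151044766-151044915, minus strand, is shown because its window held 2 copies of the element that Hlf and Nfil3 bind.
Hlf: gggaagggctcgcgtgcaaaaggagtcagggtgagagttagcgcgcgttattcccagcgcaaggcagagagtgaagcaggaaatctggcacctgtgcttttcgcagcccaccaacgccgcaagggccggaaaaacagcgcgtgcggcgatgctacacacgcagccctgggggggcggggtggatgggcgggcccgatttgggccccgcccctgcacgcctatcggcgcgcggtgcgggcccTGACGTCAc
Nfil3: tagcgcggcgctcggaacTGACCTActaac
Per3: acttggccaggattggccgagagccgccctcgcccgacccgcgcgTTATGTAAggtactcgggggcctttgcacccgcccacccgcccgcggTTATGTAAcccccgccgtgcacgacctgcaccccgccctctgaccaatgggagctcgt
The Hlf stretch held a cyclic AMP element that begins 9 bases before the start, a motif found in 1.79% of all 32841 windows of this length. The Nfil3 stretch held the ROR core on the opposite strand, which therefore reads as its reverse complement, beginning 12 bases before the start (2.61% of all windows). The D-boxes of Per3 began 205 and 158 bases before its start. At least 1 D-box was found in 1.06% of all windows, and 2 or more in 8 windows, or 0.0244%. E-boxes, found in 7.15% of all windows, were present for 3 of the genes, each shown here as 30 bases: Per1 at chr11:69098771-69098800 (plus strand), Cry1 at chr10:85185097-85185126 (minus strand) and Tef at chr15:81802534-81802563 (plus strand).
Per1: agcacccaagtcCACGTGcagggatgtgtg
Cry1: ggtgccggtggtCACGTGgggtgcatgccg
Tef: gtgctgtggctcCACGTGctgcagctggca
The windows of Dbp and Nr1d1 held none of these letters. Tef and Per1 each had a further window, and both Per1 starts lie inside the gene, whose span begins at chr11:69095108. The further window of Tef also held an E-box and that of Per1 no match. Such matches describe the sequence only, since binding was not measured.

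All arrays had been scaled to the same mean, their median signals lay between 18.1 and 28.9 arbitrary units, and pairs of arrays correlated at 0.896 to 0.969 over tested genes. The array of control replicate 5 differed most from the other controls, with a mean correlation of 0.926 and the highest 3′ to middle log2 ratio of Gapdh and Actb, a sign of RNA quality, at 5.24. The brighter probe set of the targeted gene Kmt2a had a mean of 260.2 ± 85.8 among controls and of 216 ± 97.2 after Mll loss (SD, n = 5 each, adjusted p = 0.610 by limma). Its place relative to the deleted part was not analysed here, so it does not check the labels. Of the sort genes, Kit ranged from 101 to 181 among controls and from 27.7 to 94.1 after Mll loss, and Cd48 from 44.1 to 197 and from 68.7 to 172. Neither passed the test (adjusted p = 0.132 and 0.722 by limma). The groups did not overlap for Kit, with the Mll-deficient samples lower, as for 2.54% of all tested genes. Together with Slamf1 these made 3 tested genes, of which 0 passed in limma and 2 had an unadjusted p under 0.05. Their median difference was -0.66. Ly6a, which encodes Sca-1, had no probe set paired with its symbol alone. The summed signal of 12 granulocyte and monocyte markers was high in both groups, at 117278 to 176548 in controls and 124876 to 208463 in Mll-deficient samples. Of these 12, 0 passed in limma, 4 had an unadjusted p under 0.05 and 3 had a difference below 0, with a median of 0.14. The summed signal of 10 lymphoid markers was 1209 to 2027 and 1212 to 2635. That of 5 megakaryocyte markers was 1454 to 4210 and 1268 to 2300, and all 5 had a difference below 0, with 0 past the test.

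Of the 10 genes, 9 were bright enough to be tested, and 2 of them fell in Mll-deficient cells: Hlf, the stem cell factor, and Nfil3, the repressor that shares its DNA element. None rose, and 7 did not pass. The background is that 5.52% of all 12580 tested genes passed the test in either direction and 1.76% were lower, while 3.76% were higher. The median difference of the 9 genes was -0.39 on the log2(signal + 16) scale, against -0.04 for all tested genes, and 7 of the 9 were below 0, as were 53.4% of all tested genes. Both calls lay close to the threshold and depended on single arrays, as given below.

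Hlf was read by a bright pair of probe sets, and both fell. On 1434735_at the controls read 709, 985, 1592, 1396 and 326 for replicates 1 to 5, and the Mll-deficient samples read 439, 578, 254, 255 and 153. Control replicate 5 lay below Mll-deficient replicates 1 and 2, so the groups overlapped on this probe set, while the other 4 controls were above every Mll-deficient sample. The means were 1002 ± 512 and 336 ± 170.5 (SD, n = 5 each), and the log2 difference was -1.48 ± 0.40 (SE), with a 95% interval from -2.32 to -0.64 (limma adjusted p = 0.0384 over genes). On that scale Hlf was 2.79-fold higher in controls.

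On 1434736_at, the dimmer Hlf probe set, the controls read 309, 457, 938, 418 and 372, and the Mll-deficient samples read 232, 207, 163, 248 and 74.6. Here the groups did not overlap. Non-overlapping groups were seen for 5.68% of the 27022 tested probe sets, and for 2.42% with the Mll-deficient samples lower. The difference was -1.34 ± 0.32 (SE, limma adjusted p = 0.0293 over probe sets), and on that same scale of adjustment the brighter probe set had 0.0458. Over probe sets, 3.28% passed in either direction and 1.16% were lower. Of the 16 tested probe sets of the group 2 passed, both of Hlf, and 13 had a difference below 0, as did 57.1% of all tested probe sets. Control replicate 3 was the highest and Mll-deficient replicate 5 the lowest array on both Hlf probe sets. In sorted bulk RNA, fewer cells that express Hlf and less Hlf RNA per cell cannot be told apart.

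Markers of stem cells and of other lineages were measured beside Hlf. Of 12 listed stem cell genes (Mecom, Procr, Fgd5, Hoxb5, Mllt3, Meis1, Ctnnal1, Prdm16, Slamf1, Esam, Robo4 and Vwf), all were tested. Lower past the test were 2 (Mecom and Prdm16), or 16.7%, against 1.76% of all tested genes. The other 10 stem cell genes did not pass, and the median of all 12 was -0.78. Their summed signal was 2197 to 5884 in controls and 865 to 2293 in Mll-deficient samples, highest in control replicate 3 and lowest in Mll-deficient replicate 5, as for Hlf. Control replicate 5, the lowest control for Hlf on the brighter probe set, was also the lowest control for this sum. Erythroid markers moved the other way: of 13 tested, 10 rose (76.9%, against 3.76% of all tested genes). The summed erythroid signal was 4763 to 9653 in controls and 17435 to 20287 in Mll-deficient samples, with no marker at 0 on any array. The part of these cell type differences in the Hlf result was not tested.

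The PAR bZIP relatives of Hlf did not pass the test. Tef, on its brightest probe set 1424175_at, read 156, 178, 191, 184 and 202 in the controls and 167, 152, 211, 141 and 170.0 in Mll-deficient samples. The groups overlapped almost wholly, and the difference was -0.11 ± 0.19 (SE), with a 95% interval from -0.52 to 0.30 (limma adjusted p = 0.801). Of the 2 other Tef probe sets, 1438033_at was dim, at 24.5 ± 10.6 and 11.6 ± 8.73 (SD, n = 5 each), with a difference of -0.57 ± 0.26 (limma adjusted p = 0.253 over probe sets). The remaining one, 1450184_s_at, lay under the filter, with a highest signal of 20.6.

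Dbp, the PAR bZIP factor whose RNA swings most widely over the day in many tissues, read 514, 544, 803, 441 and 611 in controls on 1438211_s_at. The Mll-deficient samples read 580.1, 574, 770.2, 490.4 and 516. Every Mll-deficient value lay inside the control range, and the difference was 0.02 ± 0.21 (SE), with a 95% interval from -0.43 to 0.47 (limma adjusted p = 0.971). The suffix of this probe set marks one that can match more than 1 transcript. The other Dbp probe set, 1418174_at, was dim, at 10.9 ± 7.97 in controls and 21.3 ± 8.37 in Mll-deficient samples (SD, n = 5 each), with a difference of 0.49 ± 0.25 (limma adjusted p = 0.316 over probe sets).

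Whether Hlf differed more than its relatives was tested on the log2 difference between genes on each array, in 5 contrasts chosen after the values were seen. Hlf relative to Tef was lower by 1.37 log2 units in Mll-deficient samples and Hlf relative to Dbp by 1.50 (two-sided exact permutation p = 0.0476 and 0.0317 over 252 assignments, n = 5 against 5). After adjustment over the 5 contrasts both had an exact permutation p of 0.119, so the differences between these genes did not pass. Hlf relative to Nfil3 differed by -0.55 (exact permutation p = 0.317, adjusted 0.317), a difference smaller than the SD of 1.01 among controls. For the remaining contrasts, Per3 relative to Per1 and Nfil3 relative to Bhlhe40, the values were -0.71 and -0.53, with adjusted exact permutation p of 0.179 and 0.132. The smallest p this test can give is 0.00794.

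**Figure D1:**
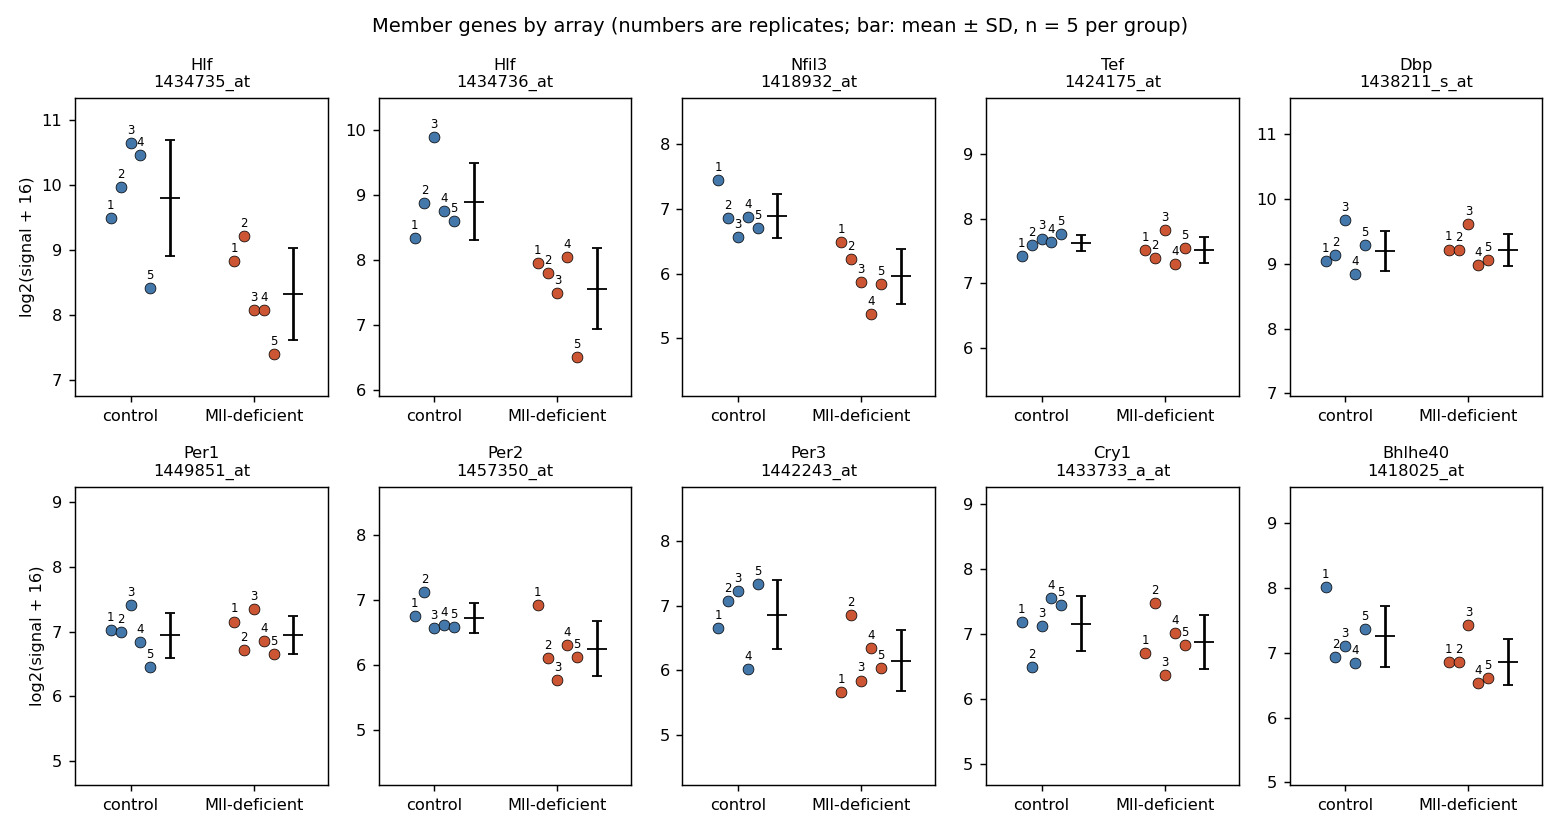
Log2(signal + 16) on the vertical axis for both bright Hlf probe sets and the brightest probe set of each other tested gene, by group, with 1 point per array numbered by replicate and a bar for mean ± SD (n = 5 per group). The groups do not overlap for Hlf 1434736_at and Nfil3, overlap through control replicate 5 for Hlf 1434735_at, and overlap for Tef, Dbp, Per1, Per2, Per3, Cry1 and Bhlhe40.

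Nfil3 had 1 probe set, 1418932_at. The controls read 158, 99.7, 78.4, 101 and 88.5, and the Mll-deficient samples read 73.8, 58.6, 42.6, 25.4 and 41.2. All controls were above all Mll-deficient samples, although the lowest control and the highest Mll-deficient sample were close. Such a separation was seen for 6.96% of all tested genes, and for 2.54% with the Mll-deficient samples lower. The means were 105 ± 31.1 and 48.3 ± 18.5 (SD, n = 5 each), and they differed by -0.93 ± 0.25 log2 units (SE) with a 95% interval from -1.46 to -0.40, or 1.90-fold higher in controls (limma adjusted p = 0.0411 over genes). Adjusted over probe sets, its limma p was 0.0541, which does not pass. Nfil3 is also known to be induced by cytokines and needed for natural killer cell development. Of 8 tested lymphoid markers 0 passed in limma, with 1 at an unadjusted p under 0.05 and a median difference of 0.18, and their part in the Nfil3 result was not tested.

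The period genes encode the inhibitors that, with Cry proteins, close the clock's feedback loop. Per1 read 114, 111, 154, 98.1 and 71.9 in the controls and 126, 88.6, 146, 99.5 and 84.6 in Mll-deficient samples. The groups lay on top of each other, with a difference of 0.00 ± 0.23 (SE), a 95% interval from -0.49 to 0.49 and a limma adjusted p of 0.9999. Per2, on 1457350_at, read 91.5, 123, 78.6, 81.7 and 80.1 in the controls and 105, 52.9, 38.7, 62.8 and 53.9 in Mll-deficient samples. Only Mll-deficient replicate 1 reached the control range, and the difference of -0.48 ± 0.24 (SE) had a 95% interval from -0.99 to 0.03 (limma adjusted p = 0.270). A dimmer Per2 probe set, 1417602_at, differed by -0.07 ± 0.29 (limma adjusted p = 0.930 over probe sets), and the remaining one, 1417603_at, lay under the filter.

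Per3, whose upstream window carried both D-boxes, had 6 probe sets, 4 of them tested, and none passed. On the brightest, 1442243_at, the controls read 84.6, 118, 134, 49.2 and 145, and the Mll-deficient samples read 35.1, 99.9, 41.5, 65.3 and 49.7. Control replicate 4 lay below 3 of the Mll-deficient samples. The difference of -0.71 ± 0.29 (SE) had a 95% interval from -1.32 to -0.10 (unadjusted p = 0.0255, limma adjusted p = 0.170). The other 3 tested probe sets lay nearer to 0, at -0.09 ± 0.25 (1421087_at), -0.17 ± 0.24 (1441445_at) and -0.23 ± 0.27 (1458176_at). The probe sets under the filter, with a highest signal of 20.3, were higher in Mll-deficient samples, at 0.42 ± 0.22 (1421086_at) and 0.08 ± 0.19 (1460662_at). So the size and sign of the Per3 difference depended on the probe set. The mean over all 6, those under the filter included, was -0.12 (limma adjusted p = 0.678).

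Cry1, the Per partner, read 129, 73.8, 124, 173 and 159.6 in the controls and 88.2, 163, 66.6, 114 and 97.6 in Mll-deficient samples. Its groups overlapped, with a difference of -0.28 ± 0.26 (SE) and a 95% interval from -0.83 to 0.27 (limma adjusted p = 0.592). Bhlhe40, the E-box repressor, read 243, 107, 122, 98.1 and 148 in the controls and 99.7, 100.3, 156, 76.1 and 81.9 in Mll-deficient samples. Control replicate 1 was the highest array for Bhlhe40, as it was for Nfil3, and the Bhlhe40 difference was -0.39 ± 0.26 (SE), with a 95% interval from -0.94 to 0.15 (limma adjusted p = 0.422). Nr1d1, the nuclear receptor that represses Arntl, lay under the filter. Its 1 probe set read 1.77 to 40.5 over all 10 arrays, with medians of 4.38 in controls and 3.38 in Mll-deficient samples, so its level was not measured with useful precision.

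**Figure D2:**
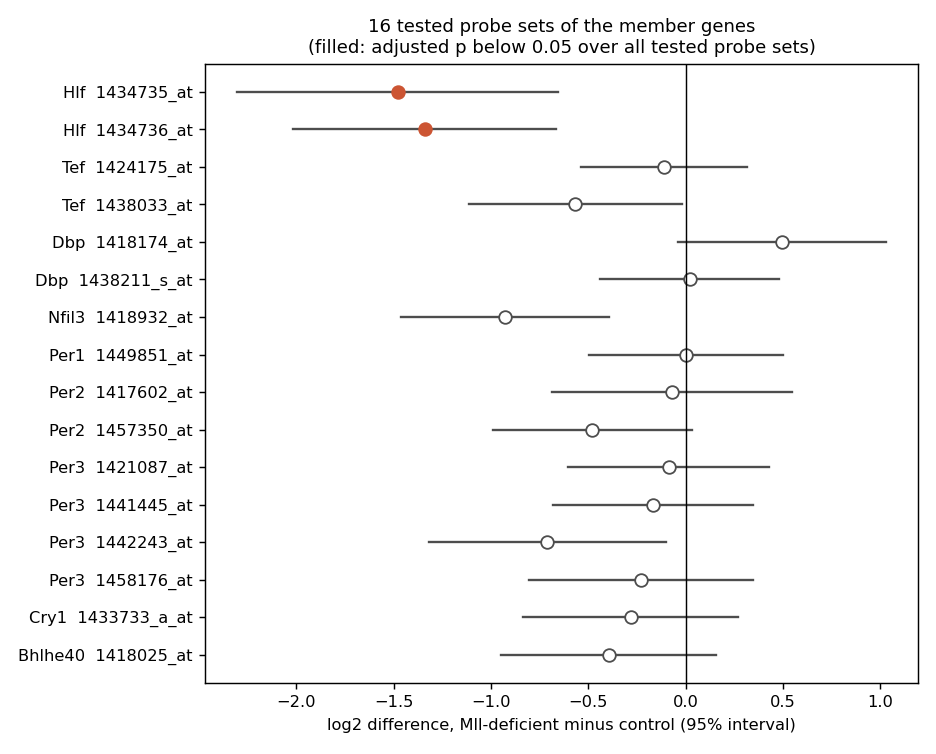
Log2 differences, Mll-deficient minus control, for the 16 tested probe sets of the group, on the horizontal axis with 95% intervals from the fit over all tested probe sets. The 2 Hlf probe sets, at -1.48 and -1.34, are the filled points with an adjusted p below 0.05, while Nfil3 at -0.93 has an interval below 0 but an adjusted p of 0.0541.

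The other core clock genes gave 0 calls in limma, in either direction, among 9 tested of 13 listed, with 2 at an unadjusted p under 0.05. Their median difference was 0.04. Arntl, the Bmal1 gene, was at 95.7 ± 41.9 among controls and at 96.0 ± 35.8 without Mll (SD, n = 5 each), a difference of 0.04 ± 0.28 (SE, limma adjusted p = 0.961). The smallest p values belonged to Timeless and Tipin, which encode a replication fork complex besides their place in this list. Timeless read 665 ± 225 and 1133 ± 210.2 (difference 0.79 ± 0.23, limma adjusted p = 0.0575) and Tipin 1317 ± 359.9 and 2233 ± 1090.4 (0.70 ± 0.27, limma adjusted p = 0.155). Timeless passed, as higher in Mll-deficient samples, with the RNA quality covariate (0.83, limma adjusted p = 0.00931), with the filter at the 60th percentile (0.0482) and without control replicate 2 (0.95, 0.0226). The other probe set of Timeless was at 0.74 ± 0.26 (limma adjusted p = 0.133 over probe sets). Nr1d2, the close relative of Nr1d1, was at -0.56 ± 0.30, and Ciart, a repressor of Clock and Bmal1, at -0.38 ± 0.24, and neither passed (limma adjusted p = 0.308 and 0.406). Ciart was dim, at 23.8 ± 8.81 in controls and 14.8 ± 8.08 in Mll-deficient samples (SD, n = 5 each). Clock itself was at -0.38 ± 0.27 (limma adjusted p = 0.464).

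Among widely rhythmic output genes, 0 of 15 passed in limma, 1 had an unadjusted p under 0.05, and the median was -0.08. That one was Lonrf3, a RING finger gene, at -0.94 ± 0.28 (limma adjusted p = 0.0555). Lonrf3 read 413, 258, 267, 431 and 230.1 in the controls and 191, 229, 199.7, 94.4 and 99.5 in Mll-deficient samples on its brighter probe set. It passed in 5 of 12 other settings with all arrays kept, such as the mean of its probe sets (-0.89, limma adjusted p = 0.0170) and the RNA quality covariate (-0.89, 0.0180), and without control replicate 5 (0.0343) or Mll-deficient replicate 2 (0.0398). The groups did not overlap on either of its probe sets, with the Mll-deficient samples lower, as for 2.42% of all tested probe sets. Its second probe set was at -0.84 ± 0.24 (limma adjusted p = 0.0625 over probe sets). Litaf, Wee1 (a cell cycle kinase) and Tsc22d3 (a glucocorticoid-induced gene) had differences of -0.46 ± 0.23, -0.47 ± 0.25 and -0.36 ± 0.25, and none of them passed (limma adjusted p = 0.271, 0.310 and 0.451). The probe sets of Tsc22d3 disagreed, since 1420772_a_at was at -0.95 ± 0.32 and 1425281_a_at at 0.16 ± 0.21, neither past the test (limma adjusted p = 0.120 and 0.759 over probe sets).

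Of 17 tested modifiers and partners of clock proteins, 1 fell and 16 did not pass, with a median of -0.09. The 1 called was 5.88% of those tested, against 1.76% of all tested genes that were lower and 5.52% that passed in either direction. The fall was Ep300, a histone acetyltransferase that Clock and Bmal1 recruit. It read 906, 444, 566, 791 and 543 in the controls and 356, 410.1, 190.0, 415 and 175 in Mll-deficient samples. Its groups did not overlap, with the Mll-deficient samples lower, as for 2.54% of all tested genes. The difference was -1.07 ± 0.28 (SE, limma adjusted p = 0.0350). Crebbp, the paralog of Ep300, was at -0.47 ± 0.23 on its brightest probe set (limma adjusted p = 0.259). Its other tested probe sets were at -0.52 ± 0.27 and -0.05 ± 0.24 (limma adjusted p = 0.322 and 0.938 over probe sets). Prkaa2, an AMP-activated kinase subunit, was at -0.69 ± 0.27, Csnk2a1, a casein kinase subunit, at 0.56 ± 0.28, and Hdac3, a histone deacetylase, at 0.49 ± 0.28. None of these passed (limma adjusted p = 0.151, 0.267 and 0.350). Prkaa2 was dim, at 24.5 ± 5.76 in controls and 10.6 ± 11.5 in Mll-deficient samples (SD, n = 5 each). Its difference was -1.78 with offset 1 and -0.26 with offset 64. The probe sets of Csnk2a1 disagreed, from -0.48 ± 0.24 on 1453427_at to 0.56 on the brightest, and their mean was 0.20 (limma adjusted p = 0.526).

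The rest of the bZIP family, 50 listed genes, had 41 tested, of which 2 fell, 0 rose and 39 did not pass. The 2 called were 4.88% of those tested, against 1.76% of all tested genes that were lower and 5.52% that passed in either direction. The median was -0.26. Fos, an AP-1 subunit made within minutes of stimulation, read 588, 546, 304, 610.3 and 653 in the controls and 109, 169, 155, 380.0 and 376 in Mll-deficient samples. Control replicate 3 was the one control below the highest Mll-deficient samples, and the difference was -1.24 ± 0.32 (SE, limma adjusted p = 0.0334). Fosl2, another AP-1 subunit, read 823 ± 191 in the controls and 436 ± 99.7 in Mll-deficient samples (SD, n = 5 each), at -0.89 ± 0.22 (SE, limma adjusted p = 0.0301). A dim second probe set of Fosl2 was at 0.03 ± 0.28 (limma adjusted p = 0.966 over probe sets), and averaging the probe sets ended the call (-0.43, limma adjusted p = 0.238). Nearest to the threshold among the others were Bach1, a repressor of haem-regulated genes (-0.79 ± 0.24), Jdp2 (-0.69 ± 0.25), Cebpb (-0.72 ± 0.26) and Ddit3, a stress factor (0.54 ± 0.22), with limma adjusted p of 0.0673, 0.125, 0.127 and 0.177. With the RNA quality covariate Bach1 and Cebpb passed too (-0.83 and -0.78, limma adjusted p = 0.00838 and 0.0132), as did Bach1 without control replicate 2 (-0.93, 0.0302). The dimmer tested probe sets of Bach1, Cebpb and Ddit3 were at -0.15 ± 0.31, -0.24 ± 0.31 and -0.03 ± 0.26 (limma adjusted p = 0.856, 0.738 and 0.966 over probe sets). Immediate early genes, a list that shares Fos with this family, summed to 3678 to 8199 in controls and 2542 to 3310 in Mll-deficient samples. The 8199 was control replicate 5, the array least like the other controls, which lay between 3678 and 4765. Of 13 tested immediate early genes, 2 fell (15.4%, against 1.76% of all tested genes). The part of the immediate early difference in the Nfil3 and Hlf results was not tested.

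**Figure D3:**
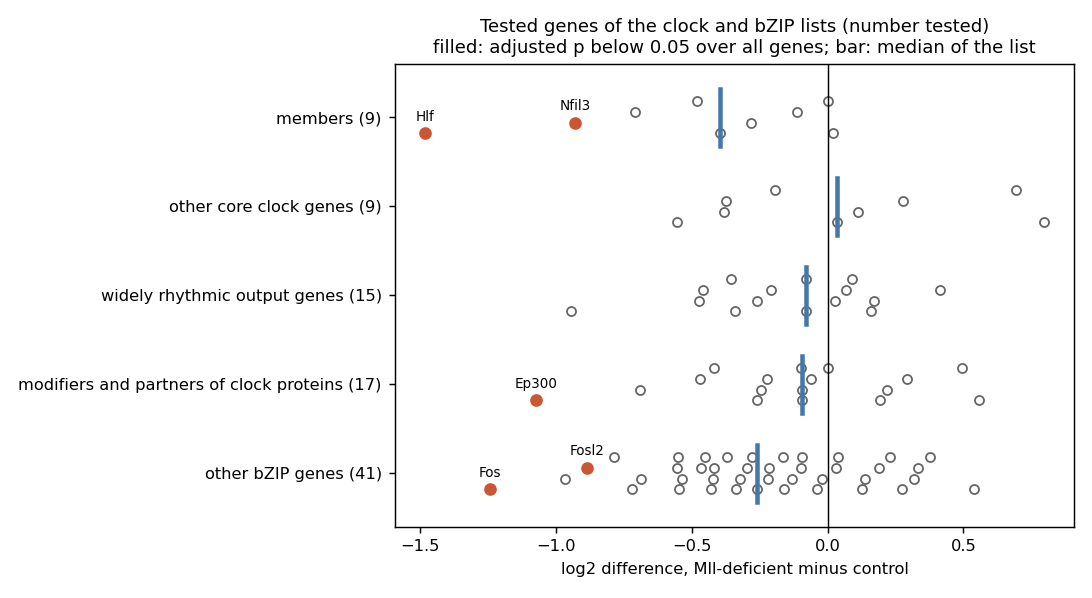
Log2 differences, Mll-deficient minus control, on the horizontal axis for every tested gene of the group and of 4 related lists, with the list median as a bar and genes past an adjusted p of 0.05 filled and named. Hlf, Nfil3, Ep300, Fos and Fosl2 are the filled points, all below 0, and the 9 other core clock genes and 15 rhythmic output genes have none.

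The calls of Hlf and Nfil3 depended on which array was removed and on the processing. Each lost its call in 7 of 10 fits with 1 array removed: those without control replicates 1, 2, 3 or 4 and those without Mll-deficient replicates 3, 4 or 5. In those fits the adjusted p of Hlf was 0.0671, 0.0595, 0.103, 0.0967, 0.0918, 0.0739 and 0.114, and that of Nfil3 0.115, 0.0563, 0.0551, 0.0775, 0.0878, 0.0961 and 0.0988, in that order (limma). The differences themselves stayed between -1.83 and -1.25 for Hlf and between -1.06 and -0.78 for Nfil3 over all 10 fits. Without control replicate 5, the array that stood apart, Hlf was at -1.83 (limma adjusted p = 0.00369) and Nfil3 at -0.97 (limma adjusted p = 0.0360). With the 3′ to middle ratio as a covariate they were at -1.39 and -0.89 (limma adjusted p = 0.00770 and 0.0168). Both calls ended with no filter on dim genes (limma adjusted p = 0.0579 and 0.0776) and with each array centred on its median (limma adjusted p = 0.0803 and 0.0661). Over probe sets, the brighter Hlf probe set lost its call in 8 of the 10 leave-one-out fits, all but those without control replicate 5 and Mll-deficient replicate 2 (highest limma adjusted p = 0.136), and in 4 of 11 other settings with all arrays kept: offset 1 (0.0620), median centring (0.1004), no filter (0.0727) and no intensity trend (0.0517). Nfil3, not called over probe sets, passed there in 3 of those 11 settings and 2 of the 10 fits. The dimmer Hlf probe set lost its call over probe sets in 4 of the 10 leave-one-out fits, without control replicates 3 or 4 or Mll-deficient replicates 3 or 5 (limma adjusted p = 0.0802, 0.0597, 0.0711 and 0.0818), and with median centring (0.0652). Ep300 lost its call in 6, Fos in 6 and Fosl2 in 7 of the 10 reduced fits, with a highest adjusted p of 0.101, 0.0879 and 0.0807. Median centring also ended the calls of Ep300 and Fosl2 (limma adjusted p = 0.0701 and 0.0537).

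**Figure D4:**
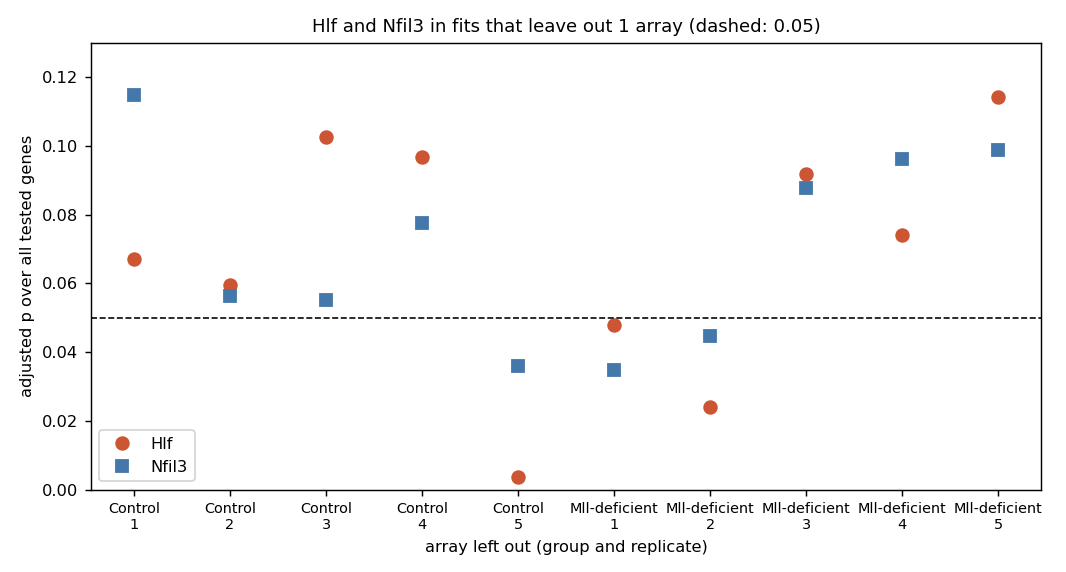
Adjusted p over all tested genes on the vertical axis for Hlf (circles) and Nfil3 (squares) in the 10 fits that each leave out the array named on the horizontal axis, with the 0.05 threshold dashed. Both genes lie below the line without control replicate 5 or Mll-deficient replicates 1 or 2, and above it in the other 7 fits.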

How the data were processed

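The authors deposited 1 linear signal intensity for each probe set and mouse. Per the submitters' processing notes the software was MAS5 5.0. On each array their mean, after dropping the lowest and highest 2%, was 150.001, which removes differences in total RNA per cell. Probe sets were named through the platform annotation, updated to RefSeq symbols of GRCm38.p6. Of 45037 probe sets, 34945 had 1 symbol, 932 several and 9160 were unnamed here, and those with several named no gene. Values were taken as log2(signal + 16), an offset that understates changes of dim genes. The probe set with the highest mean over the arrays stood for its gene, and a gene was tested where that mean exceeded the 40th percentile over probe sets (12580 genes). Probe sets above it were tested in a second fit (27022). The model was fitted in R 4.3.3 with limma 3.58.1 (two-sided, lmFit, eBayes with intensity trend), p-values were adjusted by Benjamini-Hochberg, and the threshold was 0.05. Differences are Mll-deficient minus control, and n is mice. Precision is limited by how few arrays there are. The genes, lists and tests were chosen with earlier results of these data known. Genes named from lists were all those past the threshold and up to 4 others with the smallest p, and Arntl and Clock were named after their values were seen, as were the sort genes and the called stem cell genes. In simulated data for this comparison over 12580 genes, each log2 size was given to 50 genes, and 0 were recovered at 0.5, 15 at 1, 48 at 2 and 50 at 3. Noise was drawn independently for each gene, and 115 genes were called in all, against 694 in the data. The adjustment was thus stricter in the simulation, so these counts do not measure recovery in the data. Correlations of deviations between same-numbered arrays ranged from -0.23 to 0.28, so replicate numbers were not treated as pairs.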

Additional observations from a re-analysis of the deposited data

How the results depend on the processing

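The reported counts were 2 member genes, 2 member probe sets, 3 genes of the clock and bZIP lists and 694 of all genes. The 3 list genes, all lower, were 3.66% of the 82 tested. Of all tested genes 5.52% passed in either direction and 1.76% were lower. Member genes past the threshold numbered 0 with median centring, with no filter and at a threshold of 0.01, where member probe sets numbered 0, 1 and 0. Member probe sets numbered 1 with offset 1 and with no intensity trend. List genes numbered 1 with median centring, 5 with the filter at the 60th percentile, 8 with the RNA quality covariate, 6 at a threshold of 0.10 and 0 at 0.01. All genes past the threshold numbered 1610 with the covariate, 1187 at 0.10 and 175 at 0.01. Hlf lost its call with median centring (-1.42, limma adjusted p = 0.0803) and with no filter (-1.48, 0.0579). The cause of these changes was not tested, beyond the larger number of genes adjusted over without a filter. Leaving out 1 array gave 0 to 2 member genes, 0 to 3 member probe sets, 0 to 4 list genes, 317 to 875 of all genes and an Hlf difference between -1.83 and -1.25. The count of all genes fell by over 1.5 times without control replicates 1, 3 and 4 (365, 391 and 374) and Mll-deficient replicates 1, 3 and 5 (455, 364 and 317). Per1, near 0 throughout, reversed with offset 64 (-0.0017) and array weights (-0.089), and ranged from -0.12 to 0.12 when 1 array was left out, and Dbp from -0.081 to 0.14. With the replicate block, Hlf was at -1.48 (limma adjusted p = 0.0147) and Nfil3 at -0.93 (0.0385), and 588 of all genes, 2 member genes and 2 list genes passed, Fosl2 being the call that ended (-0.89, limma adjusted p = 0.0608). The numbers of the arrays are not known to pair mice. Dixon's test flagged 0 of the 32 groups of 5 arrays checked, those of the 16 tested member probe sets. With 5 values it flags only extreme cases (critical value 0.71), so outlying values are not excluded.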
